A study of Homo sapiens with 4 samples.

Results

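Non-muscle myosin II is the motor that slides actin filaments in non-muscle cells. The genes described here encode its heavy chains (MYH9, MYH10 and MYH14), its light chains (MYL6, MYL9, MYL12A and MYL12B) and kinases that switch it on (MYLK, ROCK1 and ROCK2). They are 10 rows of the 56303 in a table of raw RNA counts from Huh7, a long-used cell line from a human liver carcinoma. The members were chosen by their gene names after the heavy chains had stood out in the same data for IP over input and for its difference between the cultures, so all values of those contrasts are given as a description, with no test.

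The study asked which mRNAs are bound by RBM39, an RNA-binding splicing factor, and used RNA immunoprecipitation (IP) with an RBM39 antibody followed by sequencing. One culture of Huh7 cells carried a control hairpin plasmid (shControl) and the other a hairpin plasmid against RBM39 (shRBM39). From each culture came 1 library of input RNA and 1 of IP RNA, 4 libraries in all, with no IP by a control antibody. The shControl libraries held 20858382 (input) and 41387762 (IP) counts, and the shRBM39 libraries 22249581 (input) and 45812488 (IP). Where 4 values follow each other below, they keep this order.

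Each molecule of non-muscle myosin II holds a pair of heavy chains, which carry the actin-binding motor head and a long coiled-coil tail, a pair of essential light chains and a pair of regulatory light chains. Phosphorylation of the regulatory light chain by myosin light chain kinase or by the ROCK kinases lets the molecules assemble into filaments and contract. In liver epithelial cells this motor tensions the cell cortex, cell junctions and the ring that divides the cell.

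Values for each group rest on 1 library, so there is no replicate check. Ratios are given on the log2 scale after scaling the libraries by TMM, with a 95% interval that covers counting error only. A feature is called higher or lower when it differs by at least 2-fold and that interval excludes equality. All 10 members were among the 19210 features compared, which had 10 or more counts in 2 or more libraries. In bulk RNA, more cells that hold an mRNA and more of it per cell cannot be told apart. The hairpin's own target was little changed in the input. Its counts, 8701 (shControl) and 8053 (shRBM39), give a log2 ratio of -0.13 (-0.17 to -0.08), so every direction below is that of the label shRBM39. The mRNA of RBM39 was more abundant in both IPs than in their inputs, with log2 ratios of 1.36 (1.33 to 1.39) for shControl and 2.58 (2.55 to 2.62) for shRBM39. All 10 liver markers were present in every library, with a summed level of 14676, 9903, 13301 and 5555 CPM (TMM-scaled counts for a common library size). That sum was lowest in the shRBM39 IP, where the heavy chains below were highest, and its part in the results was not tested. HNF4A went the other way, at 204, 298, 308 and 438 CPM, and TTR was lowest in the shControl IP (43.6 CPM). Each of the other liver markers was lowest in the shRBM39 IP. Of 12 markers of blood, endothelial, fibroblast and muscle cells, 5 to 8 had under 10 counts, and the summed level of those 12 was 18.4 to 29.6 CPM over the 4 libraries. The highest of these were CD68 (304 to 419 counts) and PECAM1 (130 to 203 counts).

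The heavy-chain mRNAs were the members that separated the shRBM39 IP from the other 3 libraries, and the start regions of their genes are shown for reference. RefSeq (GRCh38.p14) places MYH9 on chromosome 22, 36281280 to 36387967, MYH10 on chromosome 17, 8474212 to 8630725, and MYH14 on chromosome 19, 50203622 to 50310540. The lines below give the 250 bases before each gene's start, at chr22:36387968-36388217 (minus strand), chr17:8630726-8630975 (minus strand) and chr19:50203372-50203621 (plus strand). Capitals mark CCAAT (or ATTGG on the other strand) and the GC box GGGCGG (or CCGCCC).
MYH9: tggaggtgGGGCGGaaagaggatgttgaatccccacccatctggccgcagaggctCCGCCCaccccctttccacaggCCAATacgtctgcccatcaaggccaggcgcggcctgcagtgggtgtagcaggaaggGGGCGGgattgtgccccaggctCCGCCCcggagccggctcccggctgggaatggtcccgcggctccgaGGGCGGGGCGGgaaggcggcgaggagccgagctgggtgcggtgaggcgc
MYH10: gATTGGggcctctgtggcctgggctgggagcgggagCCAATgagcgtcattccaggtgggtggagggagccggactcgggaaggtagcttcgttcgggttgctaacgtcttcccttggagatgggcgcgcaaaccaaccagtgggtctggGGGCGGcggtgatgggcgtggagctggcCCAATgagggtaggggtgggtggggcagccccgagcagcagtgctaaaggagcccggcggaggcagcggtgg
MYH14: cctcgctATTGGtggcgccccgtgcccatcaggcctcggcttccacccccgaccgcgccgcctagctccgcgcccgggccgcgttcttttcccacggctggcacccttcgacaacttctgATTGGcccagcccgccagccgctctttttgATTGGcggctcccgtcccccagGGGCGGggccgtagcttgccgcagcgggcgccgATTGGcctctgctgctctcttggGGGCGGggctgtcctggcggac

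The stretch before MYH9 held 1 CCAAT and 6 GC boxes, 2 of which overlap, that before MYH10 held 3 and 1, and that before MYH14 held 4 and 2. Of 35116 stretches of this length in the RefSeq table, 32.0% held at least 1 CCAAT and 42.6% at least 1 GC box on either strand. TATAAA (or TTTATA) was in none of the 3 stretches and in 10.7% of all. Their GC content was 71.6%, 67.2% and 71.6% for MYH9, MYH10 and MYH14, against a median of 58.0% over all stretches. Among the other members, 6 genes had 11 such stretches, of which 4 held a CCAAT and 5 a GC box. These matches are a description of the letters, and the data contain no measure of promoter activity.

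MYH9 encodes the heavy chain of myosin IIA. In shControl cells it had 14497 counts in the input and 35753 in the IP, and in shRBM39 cells 39837 and 959474. Scaled, these were 672, 791, 1830 and 23159 CPM. The shRBM39 IP stood far above the other 3 libraries, and there MYH9 had the highest count of all 56303 features, taking 2.09% of the library. In the shControl IP it ranked 125.

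MYH10 encodes the heavy chain of myosin IIB. Its counts were 10503 (input) and 21854 (IP) in shControl cells and 20270 and 342196 in shRBM39 cells, or 487, 483, 931 and 8260 CPM. Both shControl libraries lay at nearly the same level, the shRBM39 input above them and the shRBM39 IP highest, where MYH10 ranked 2 of all features. MYH14 encodes the heavy chain of myosin IIC and had 3148, 9747, 4236 and 67800 counts in the same order of libraries, or 146, 216, 195 and 1636 CPM. Again the shRBM39 IP was the library that stood apart, at rank 46.

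**Figure D1:**
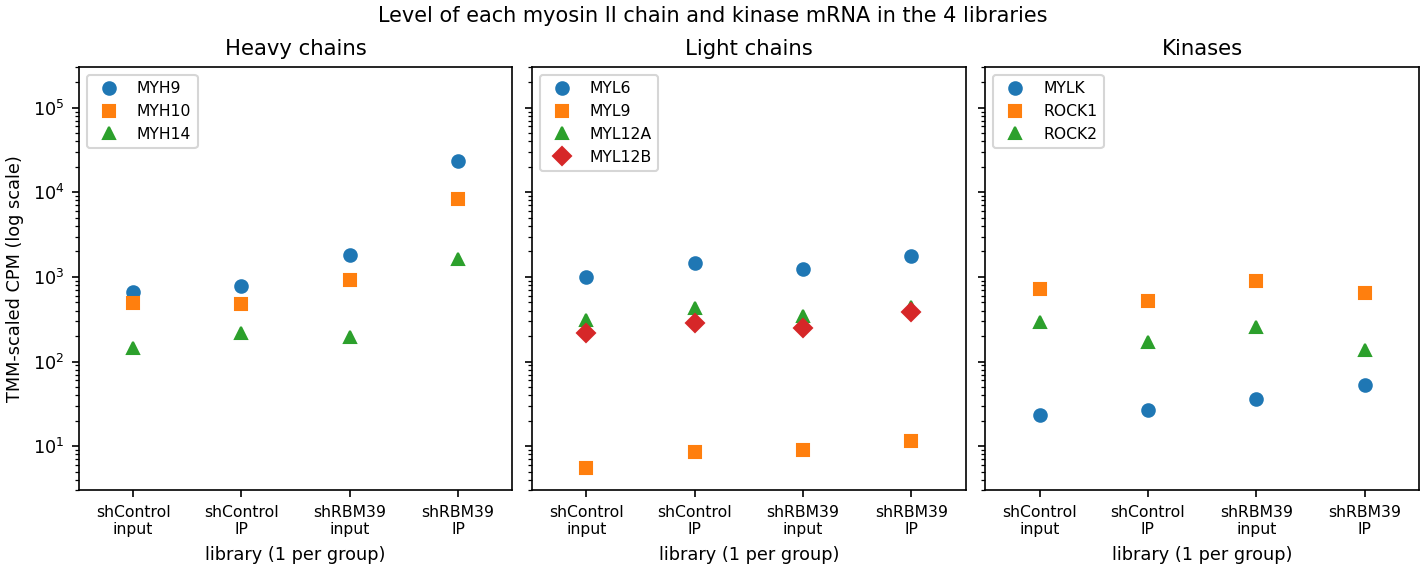
TMM-scaled CPM (log axis) of the 10 members in the 4 libraries, 1 point per gene and library, with heavy chains, light chains and kinases in separate panels. The heavy chains in the shRBM39 IP (23159, 8260 and 1636 CPM) stand above their other libraries, while no light chain or kinase has a library that stands apart in this way.

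In shControl cells 0 of the 10 members were called in either direction between IP and input, where 7.70% of all compared features were called higher and 11.3% lower. The heavy chains had log2 ratios of 0.23 for MYH9 (0.21 to 0.26), -0.01 for MYH10 (-0.04 to 0.02) and 0.56 for MYH14 (0.50 to 0.62). Their median of 0.23 lay beside a median of -0.005 over all features. The direction of MYH10 changed with the scaling of the libraries, from -0.07 to 0.08.

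In shRBM39 cells all 3 heavy chains were called higher in the IP, where 5.29% of all features were called higher and 9.00% lower. MYH9 was 12.7 times its input level (log2 3.66, 3.65 to 3.68), MYH10 8.87 times (log2 3.15, 3.13 to 3.17) and MYH14 8.41 times (log2 3.07, 3.03 to 3.12). The median of the 3 was 3.15, and that of all features 0.02. With libraries scaled to total counts, the share of higher among called features moved from 37.0% to 24.9%, and all ratios in these cells fell by 0.11 on the log2 scale. Among the 14483 features with 200 or more summed counts, the heavy chains ranked 5, 13 and 15 from the top. Among all 19210 compared features they ranked 48, 83 and 85.

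In shRBM39 cells the light chains differed far less from their input than the heavy chains, while in shControl cells their median log2 ratio (0.51) was above that of the heavy chains (0.23). MYL6, the essential light chain (chromosome 12, 56158359 to 56161579), had 21630 (input) and 65309 (IP) counts in shControl cells and 27000 and 73799 in shRBM39 cells. Its log2 IP over input was 0.53 (0.50 to 0.55) in shControl cells and 0.52 (0.50 to 0.54) in shRBM39 cells, so the ratio was nearly the same in both. The IPs were above their inputs by less than 2-fold, and MYL6 did not share the high level of the heavy chains in the shRBM39 IP.

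The regulatory light chains MYL12A and MYL12B lie side by side on chromosome 18 (3247482 to 3256237 and 3262133 to 3278461) and encode near-identical proteins, so reads can be split between them. MYL12A had 6638, 19605, 7500 and 18344 counts over the 4 libraries, with log2 IP over input of 0.49 (0.45 to 0.53) in shControl and 0.36 (0.32 to 0.40) in shRBM39 cells. MYL12B had 4656, 12817, 5402 and 15756 counts, with 0.39 (0.34 to 0.44) and 0.62 (0.57 to 0.66). The genes thus moved in opposite directions between the cultures, by small amounts. The count of MYL12A per count of MYL12B, which needs no scaling, was 1.43, 1.53, 1.39 and 1.16 in the 4 libraries.

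MYL9, the regulatory light chain known from smooth muscle (chromosome 20, 36541519 to 36551447), was the lowest member with 120, 384, 196 and 480 counts in that order of libraries. Its log2 IP over input was 0.61 (0.31 to 0.92) in shControl and 0.36 (0.12 to 0.61) in shRBM39 cells, and these intervals overlap. MYL9 lies inside the span of the long non-coding gene DLGAP4-AS1, which had 484, 1017, 511 and 1287 counts, so its reads cannot be assigned with certainty without a known strand setting. Over the 4 light chains the median log2 IP over input was 0.51 in shControl and 0.44 in shRBM39 cells. In both, 4 of 4 were above 0, as were 9551 (shControl) and 9894 (shRBM39) of all 19210 features. No light chain was called, against the shares of all features given above.

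Of the kinases, MYLK, the calcium and calmodulin dependent myosin light chain kinase (chromosome 3, 123610049 to 123884332), had 509 (input) and 1194 (IP) counts in shControl cells and 783 and 2210 in shRBM39 cells. Its log2 IP over input was 0.16 (0.01 to 0.31) in shControl and 0.57 (0.45 to 0.69) in shRBM39 cells. The antisense gene MYLK-AS1 overlaps its span with 71 to 118 counts per library.

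ROCK1 and ROCK2, which phosphorylate the regulatory light chain and inhibit myosin phosphatase, were below their input level in the IPs of both cultures. They lie on chromosome 18, 20946906 to 21111813, and chromosome 2, 11179759 to 11345437. ROCK1 had 15348, 23609, 19420 and 26847 counts, with log2 IP over input of -0.45 (-0.48 to -0.42) in shControl and -0.46 (-0.49 to -0.43) in shRBM39 cells. ROCK2 had 6344, 7631, 5518 and 5603 counts, with -0.80 (-0.85 to -0.75) and -0.91 (-0.96 to -0.85). Neither passed 2-fold, but with libraries scaled to total counts ROCK2 in shRBM39 cells stood at -1.02 and was called lower. The count of ROCK1 per count of ROCK2 was 2.42 in the shControl input, 3.09 in its IP, 3.52 in the shRBM39 input and 4.79 in its IP.

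**Figure D2:**
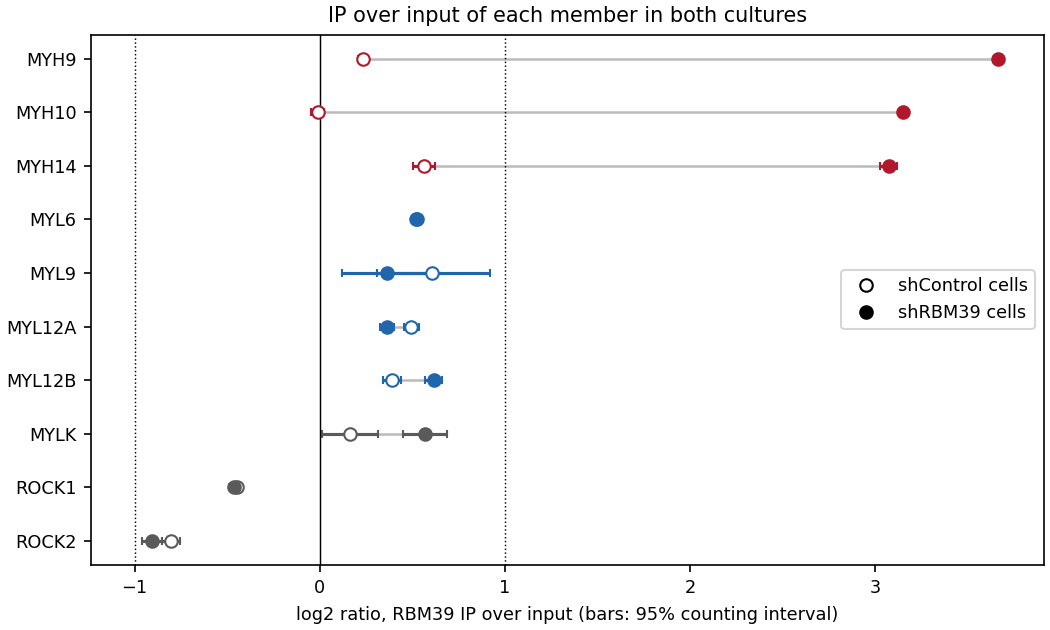
Log2 ratio of RBM39 IP over input for each member in shControl cells (open points) and shRBM39 cells (filled points), with 95% counting intervals, red for heavy chains, blue for light chains and grey for kinases; dotted lines mark 2-fold. The heavy chains run from between -0.01 and 0.56 to between 3.07 and 3.66, while the other 7 members stay within 2-fold in both cultures.

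The difference of log2 IP over input (shRBM39 minus shControl) set the heavy chains apart from their partners in the same molecule. It was 3.43 for MYH9 (3.40 to 3.46), 3.16 for MYH10 (3.12 to 3.20) and 2.51 for MYH14 (2.44 to 2.58). All 3 were called higher, and they ranked 4, 6 and 14 among the 14483 features with at least 200 summed counts. Among all 19210 compared features they ranked 87, 111 and 217. Over all features, 4.39% were called higher and 2.74% lower, and the members had been chosen with this contrast known. Of the features called here, 61.6% were higher with TMM and 39.1% with total counts.

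The 7 light chains and kinases ranged from -0.24 for MYL9 (-0.62 to 0.14) to 0.41 for MYLK (0.22 to 0.60), with a median of -0.01 beside -0.004 over all features. MYL6 stood at -0.004 (-0.03 to 0.03) and ROCK1 at -0.01 (-0.05 to 0.03), so at this depth no counting difference was detectable for either. MYL12A (-0.13, -0.19 to -0.08), ROCK2 (-0.10, -0.18 to -0.03) and MYL12B (0.22, 0.16 to 0.29) differed from 0 by more than counting error and by far less than 2-fold. Scaling to total counts lowers every difference by 0.19 on the log2 scale, which takes MYL12B to 0.03, MYLK to 0.21, MYL6 to -0.20 and ROCK1 to -0.21, and other settings put MYL6 and ROCK1 slightly above 0. MYH9, MYH10 and MYH14 were still at 3.23, 2.97 and 2.32.

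Heavy-chain and light-chain counts can also be compared within each library, where no scaling enters. These are the same counts by which the heavy chains had stood out, so the ratios are no separate result. The summed heavy-chain count per light-chain count was 0.852 (0.838 to 0.866) in the shControl input, 0.686 (0.680 to 0.693) in the shControl IP, 1.60 (1.58 to 1.62) in the shRBM39 input and 12.6 (12.6 to 12.7) in the shRBM39 IP. In shControl cells the IP therefore held fewer heavy-chain counts per light-chain count than the input, and in shRBM39 cells more. The summed kinase count per light-chain count was 0.672, 0.331, 0.641 and 0.320 in the same order, alike in both cultures and lower in the IPs. Because transcripts differ in length, these ratios compare libraries and not the abundance of the chains.

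Within the heavy chains, MYH9 made up 51.5% of the counts in the shControl input (exact binomial interval 50.9% to 52.1%), 53.1% in the shControl IP (52.7% to 53.5%), 61.9% in the shRBM39 input (61.5% to 62.3%) and 70.1% in the shRBM39 IP (70.0% to 70.1%). MYH10 made up 37.3%, 32.4%, 31.5% and 25.0%, and MYH14 11.2%, 14.5%, 6.58% and 4.95%. MYH9 gained share in the shRBM39 libraries while MYH10 and MYH14 lost it. Together the 3 held 0.135% and 0.163% of the shControl input and IP counts, and 0.289% and 2.99% of the shRBM39 input and IP counts.

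**Figure D3:**
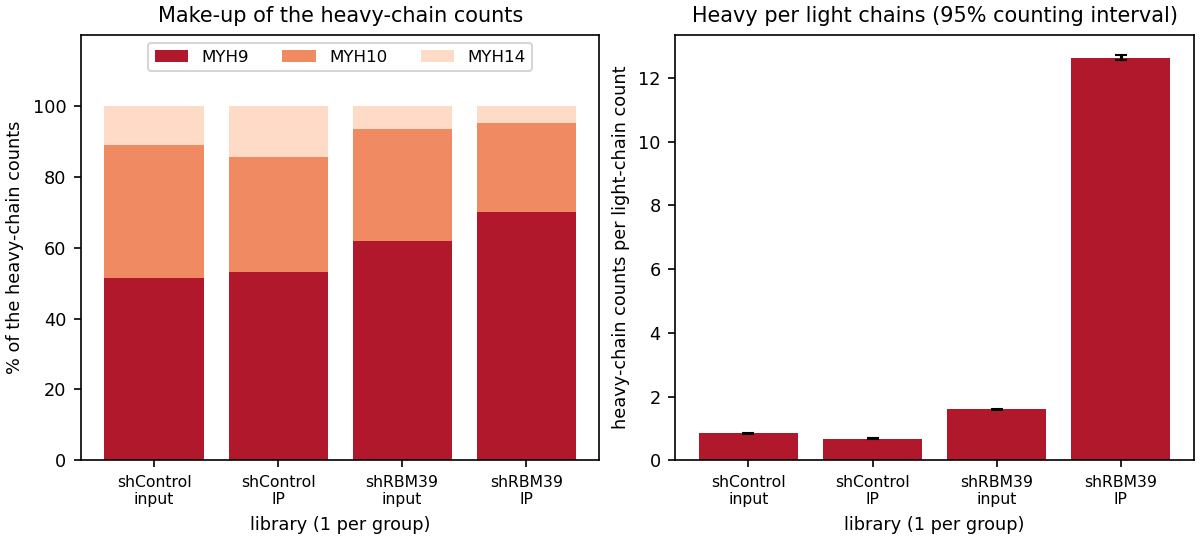
Left, share (%) of the summed heavy-chain counts held by MYH9, MYH10 and MYH14 in each library. Right, heavy-chain counts per light-chain count with 95% counting intervals, which is 0.686 to 1.60 in 3 libraries and 12.6 in the shRBM39 IP.

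The input libraries give the change of each mRNA between the cultures before the IP. Only MYH9 among the members was called, at 2.72 times its shControl level (log2 1.44, 1.42 to 1.47), where 5.10% of all features were called higher and 5.74% lower. MYH10 was at 1.91 times its shControl level (log2 0.94, 0.90 to 0.97) and MYH14 at 1.33 times (log2 0.41, 0.35 to 0.48). The order MYH9, MYH10, MYH14 is that of the difference of IP over input, which shares both input libraries with this comparison. MYH9 and MYH10 were higher in the shRBM39 cells before any immunoprecipitation.

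All 4 light chains were also higher in the shRBM39 input, with log2 ratios of 0.31 for MYL6 (0.28 to 0.33), 0.16 for MYL12A (0.11 to 0.21), 0.20 for MYL12B (0.14 to 0.26) and 0.69 for MYL9 (0.36 to 1.03). Of these, MYL9 lay above MYH14, with overlapping intervals, and the other 3 lay below it. MYLK stood at 0.61 (0.45 to 0.77) and ROCK1 at 0.33 (0.30 to 0.36), and ROCK2 was the one member lower in the shRBM39 input, at -0.21 (-0.27 to -0.16). In all, 9 of 10 members were above 0, as were 9403 of all 19210 features. The median of the members was 0.37 beside -0.01 over all features. Levels in the IPs combine the input change and the IP over input. Levels in the shRBM39 IP were 29.3 times those in the shControl IP for MYH9, 17.1 times for MYH10 and 7.59 times for MYH14. The other 7 members ran from 0.802 times for ROCK2 to 2.02 times for MYLK (log2 1.01, 0.91 to 1.12). MYLK was thus the one member outside the heavy chains with an estimate at 2-fold between the IPs, on 1194 and 2210 counts. Its interval spans 2-fold, and the estimate rests on the TMM factors of the IPs (1.09 for shControl and 0.904 for shRBM39). The share of all features that reach 2-fold between the IPs was not computed.

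**Figure D4:**
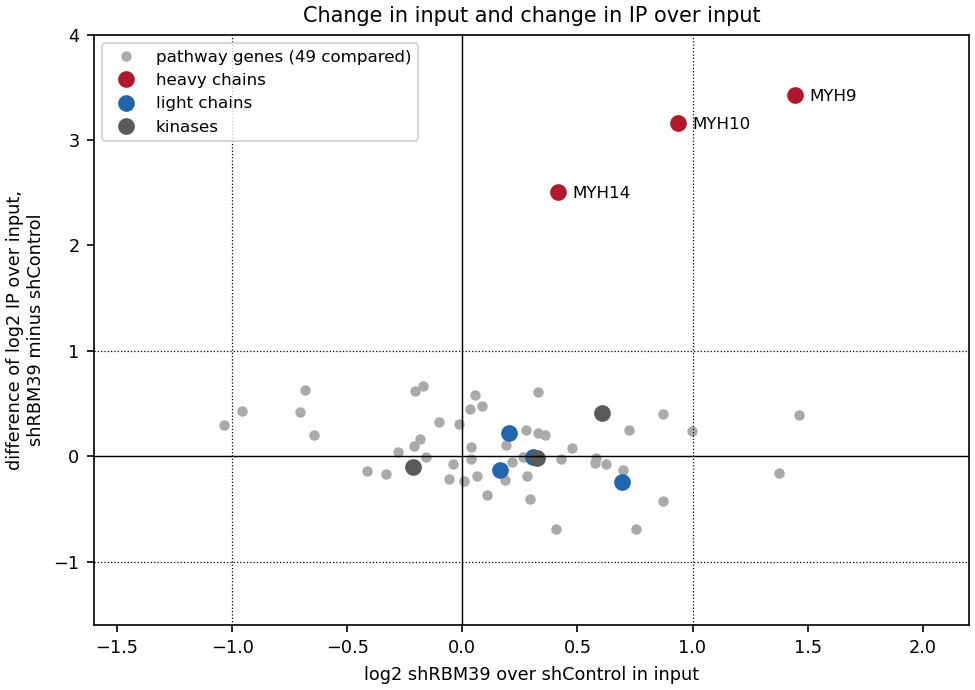
Log2 shRBM39 over shControl in input (horizontal) against the difference of log2 IP over input (vertical) for the members and 49 other genes of the pathway; dotted lines mark 2-fold. MYH9, MYH10 and MYH14 lie above 2.5 on the vertical axis, and all other points lie between -0.69 and 0.67.

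Reads shared with neighbours or relatives, if there were any, would bear on the heavy-chain counts. MYH10 and NDEL1, a dynein regulator, overlap by 117 bases in the RefSeq gene spans. NDEL1 had 2894 (input) and 5648 (IP) counts in shControl cells and 3709 and 27826 in shRBM39 cells, with log2 IP over input of -0.10 (-0.17 to -0.04) and 1.98 (1.93 to 2.03). Its counts were high in the same library as those of MYH10, and whether they share reads was not tested.

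The microRNA gene MIR6819 lies inside MYH9 on the same strand (chromosome 22, 36286847 to 36286907) and had 0, 10, 5 and 149 counts. Its highest count, 149, was in the library where MYH9 was highest. Its difference of log2 IP over input was 0.51 (-3.76 to 4.79), beside 3.43 for MYH9. So wide an interval, on 0 to 10 counts in the shControl libraries, cannot tell whether MIR6819 followed its host gene. Fragments of MYH9 RNA cannot be told apart from those of the microRNA in such a count. Its RefSeq hairpin and mature arms are shown because they are the stretch of MYH9 to which these counts are assigned, with the seed of each arm (bases 2 to 8) in capitals.
MIR6819 hairpin: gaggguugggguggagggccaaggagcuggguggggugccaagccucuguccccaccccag
hsa-miR-6819-5p: uUGGGGUGgagggccaaggagc
hsa-miR-6819-3p: aAGCCUCUguccccaccccag

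The heavy chains are members of one gene family, so reads of one may be counted for another. MYH11, the smooth-muscle heavy chain of the same family, had 62, 136, 64 and 174 counts in the 4 libraries and a difference of 0.45 (-0.15 to 1.05), so its counts stayed low in the library where MYH9 reached 959474. MYH11 in turn overlaps NDE1, which had 817 to 1906 counts. Of processed copies, 10 pseudogenes of the light chains, ROCK1 and MYLK had at most 26 counts in any library.

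Pattern was compared over 3 log2 ratios (IP over input in each culture and input over input). The heavy chains had stood out by the IP over input, so that they lie near one another is no separate result. The Euclidean distance was 0.76 between MYH9 and MYH10, 0.78 between MYH10 and MYH14 and 1.23 between MYH9 and MYH14. Among the same 14483 features, the 5 nearest to MYH9 outside the members were LMO7, a LIM-domain protein of cell junctions (distance 1.17), AHNAK, a very large scaffold protein (1.37), CGN, the tight-junction protein cingulin (1.42), TMOD1, which caps actin filament ends (1.43), and the clone-named feature XXbac-B461K10.4 (1.48).

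MYH10 had AHNAK (0.70), LIMCH1, an activator of non-muscle myosin II (0.75), TMOD1 (0.77), LMO7 (0.81) and CGN (0.86) as its nearest. MYH14 had AHNAK (0.48), DBN1, the actin-binding protein drebrin (0.49), TMOD1 (0.60), MAPK8IP2, a scaffold of the JNK kinases (0.82), and XXbac-B461K10.4 (0.89). AHNAK and TMOD1 were thus among the 5 nearest of each heavy chain. MYH14 lay nearer to AHNAK, DBN1 and TMOD1 than to either other heavy chain, and MYH10 lay nearer to AHNAK and LIMCH1. Only MYH9 had another heavy chain, MYH10, nearer than any feature outside the members. MAPK8IP2 had 16, 89, 20 and 306 counts over the 4 libraries, so its 3 ratios rest on inputs of 16 and 20 counts. Without its count in the shRBM39 IP, MAPK8IP2 would not have met the minimum of summed counts for this comparison. All these distances describe 3 ratios from the same 4 libraries.

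AHNAK had 1295, 3259, 1816 and 22472 counts, with log2 IP over input of 0.26 in shControl and 2.70 in shRBM39 cells. DBN1 had 10275, 32619, 14565 and 167162 counts, with 0.60 and 2.59. For both, as for the heavy chains, the shRBM39 IP was the library that stood apart.

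A list of 60 other genes of the pathway was drawn up in 6 groups, of which 49 genes had enough counts to be compared. None of the 49 was called in the difference of IP over input, where 4.39% of all features were called higher and 2.74% lower. With at least 50 counts in all libraries, 160 of 12957 features were higher and 113 lower. Against shares this small, 0 of 49 does not set these genes apart from all features. The median difference of the 49 was 0.07, and the range -0.69 to 0.67. In shControl cells 5 were higher in the IP and 0 lower, and in shRBM39 cells 3 were higher and 1 lower. In the inputs LIMK2, a kinase of cofilin, was higher in the shRBM39 cells (log2 1.38) and RHOB, a small GTPase, lower (-1.04). These shares of 49 can be read against the percentages of all features given above for each comparison.

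Over both cultures, the quasi-likelihood test of edgeR, with terms for fraction and culture, called 18 of the 49 higher in the IP and 4 lower at a Benjamini-Hochberg adjusted p under 0.05, where 19.3% of all features were called higher and 17.6% lower. The culture term pairs each IP with the input of its own culture and leaves 1 residual degree of freedom. Without that term edgeR called 0 of all 19210 features, the 49 included, although 4143 of all and 12 of the 49 had an unadjusted p under 0.05. With the culture term, the p-values rest on how the IP effect differs between these 2 cultures, of which 1 carried the RBM39 hairpin. The edgeR test moderates that spread with information from all features. The p-values thus do not measure the spread among replicate cultures.

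Among the other heavy chains, 6 of 11 were compared, and the largest differences among those with enough counts were those of MYH3, the embryonic muscle chain (0.62, 0.36 to 0.88), and MYH11. MYH3 fell in the edgeR test (log2 -0.68 in the IP, adjusted p = 0.0048), but it overlaps SCO1, which had 2028 to 6144 counts. MYH7, the slow muscle chain, rose (1.78, adjusted p = 0.0070) on 6 to 76 counts per library. Of the other light chains, 3 of 8 were compared. MYL5 had a difference of 0.63 (0.47 to 0.79) and fell in the edgeR test (log2 -0.52, adjusted p = 0.016), and MYL6B, another essential light chain, had a difference of -0.05 (-0.11 to 0.01). DESeq2 on the same model called 0 of the other light chains, and 0 of the other heavy chains higher and 1 lower. The rise of MYH7 and the fall of MYL5 were thus not called there.

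Of the other kinases of the light or heavy chain, 13 of 14 were compared, and edgeR's test called 4 higher and 1 lower. The highest was PAK4, a kinase activated by Cdc42 (log2 1.22, adjusted p = 2.0e-05), followed by DAPK3, a kinase of the regulatory light chain (0.92, adjusted p = 7.6e-05). The lower one was CDC42BPA, the kinase MRCK alpha (-0.82, adjusted p = 0.00044). The largest differences between the cultures in this group were -0.69 for MYLK4 (-1.41 to 0.03) and 0.67 for DAPK2 (0.10 to 1.25), both on 38 to 167 counts per library. PAK4, with 1374 to 7823 counts, had a difference of 0.58 (0.46 to 0.70).

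Myosin phosphatase removes the phosphate that ROCK and MYLK add. Its 9 listed genes were all compared, with 2 higher and 1 lower in the edgeR test. PPP1R12C, a targeting subunit, was the highest (log2 1.06, adjusted p = 3.3e-05), and its difference between the cultures was -0.23 (-0.35 to -0.11). PPP1R12A, the main targeting subunit and a ROCK substrate, had 3111, 7445, 5183 and 13377 counts in the 4 libraries and a difference of 0.25 (0.17 to 0.33).

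Upstream of ROCK, 12 of 12 genes were compared and the test called 7 higher and 0 lower. The highest were ARHGEF1, a nucleotide exchange factor (log2 1.09, adjusted p = 2.7e-05), and RHOC, a small GTPase (0.82, adjusted p = 0.00042), whose differences between the cultures were -0.43 (-0.59 to -0.26) and -0.37 (-0.50 to -0.25). Of the 6 other ROCK substrates and calmodulin genes, 4 were higher in the IP and 0 lower, led by LIMK1, which phosphorylates cofilin (1.24, adjusted p = 9.3e-06). Its difference was 0.42 (0.19 to 0.64), and that of the calmodulin gene CALM2 was -0.22 (-0.25 to -0.19). No listed gene of these groups came near the differences of 2.51 to 3.43 of the heavy chains.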

How the data were processed

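Values are the authors' deposited raw counts, 1 row per gene symbol; whole numbers with unequal library totals show no normalization. The submitters' processing notes name hg38, StringTie 1.3.4d, HISAT2 2.0.4 and cutadapt 1.9. Which program counted reads, with what strand setting and annotation, is not given in the sources used here. Each of the 4 columns carried the name of 1 sample. Of the counts from 3 to 6, 71.4% to 75.6% were even, so mates of a pair may have been counted singly and intervals may be too narrow; halving the counts was an alternative.

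Libraries were scaled by TMM (edgeR 4.0.16, R 4.3.3; factors 1.03 and 1.09 for input and IP of shControl, 0.979 and 0.904 for those of shRBM39) on features with 10 or more counts in 2 or more libraries. Log2 ratios used counts plus 0.5, with exact conditional (Clopper-Pearson) 95% intervals, and the counting standard error for the difference. Reads are not independent molecules, so intervals cover counting error only. Pathway genes were tested over all 19210 features by edgeR's quasi-likelihood test with Benjamini-Hochberg adjustment (DESeq2 1.42.0 as alternative). Both steps were tested on simulated data, with counting error alone for the ratios and a fixed dispersion for the edgeR test. Those data held no excess of even counts, and for edgeR the same IP effect in both cultures. They therefore do not show how the steps behave where the real counts depart from this. The alternatives were other library scalings, pseudocounts, count filters and halved counts. Sequences and positions are RefSeq's on GRCh38.p14, and 9 of 10 members had a start region there.

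All 10 members are named. Of each pathway list, up to 2 genes with the largest difference and at least 200 summed counts were named, and the 5 features nearest each heavy chain in pattern. MYH7, PAK4, DAPK3, CDC42BPA, LIMK2, RHOB, MIR6819, MYH4, the markers HNF4A, TTR, CD68 and PECAM1, and the overlapping genes were named after their values were seen. Members and lists were chosen with earlier results of these data known.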

Additional observations from a re-analysis of the deposited data

How the results depend on the processing

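Under 8 alternatives the number of members called was 0 in shControl cells, 3 in shRBM39 cells, 3 in the difference and 1 between the inputs, except that scaling to total counts called 4 in shRBM39 cells (ROCK2 added). MYH9, MYH10 and MYH14 differed between the cultures by 3.23 to 3.46, 2.97 to 3.19 and 2.32 to 2.54 over the settings. MYH10 in shControl cells ranged from -0.07 to 0.08, MYL6 in the difference from -0.20 to 0.02 and ROCK1 there from -0.21 to 0.01, so their direction is not settled. The edgeR test, which pairs IP and input by culture, called 22 of 49 pathway genes, with 3698 of all features higher and 3381 lower. DESeq2 called 15 of 48 (2598 and 2097 of all), total counts 16 of 49 (2850 and 3009), and no filter 24 of 56 (4628 and 2797). Without the culture term, that is unpaired, edgeR called 0 of 49 and 0 of all 19210 features, where 12 and 4143 had an unadjusted p under 0.05; the cause was not tested. Counts of 2-fold calls over all features moved by more than 1.5 times as follows. In the difference, 526 lower became 887 with total counts, and 843 higher and 526 lower became 450 and 237 with halved counts. Without the filter, 1016 higher in the shRBM39 IP became 1624. With at least 50 counts in all libraries, which leaves 12957 features, 1479 and 2173 in shControl cells became 826 and 953, 1016 and 1729 in shRBM39 cells 361 and 860, 843 and 526 in the difference 160 and 113, and 979 and 1102 between inputs 377 and 219. Halved counts took 1102 lower between inputs to 679. Higher features were 61.6% of those called in the difference and 39.1% with total counts; in shRBM39 cells they were 37.0% and 24.9%. MYL9, with 120 to 480 counts, and MYLK have the widest intervals among the members.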

Other observations

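MYH4, a fast skeletal muscle heavy chain, was not a low feature in these liver cells. It had 929 (input) and 2433 (IP) counts in shControl cells and 1520 and 3299 in shRBM39 cells, or 43.1, 53.8, 69.8 and 79.6 CPM. Its relatives MYH1, MYH2, MYH8 and MYH13 had at most 11, 3, 9 and 12 counts in any library. MYH4 was higher in the shRBM39 input (log2 0.70, 0.58 to 0.82), and its difference of IP over input was -0.13 (-0.27 to 0.01), unlike the non-muscle heavy chains. The long non-coding gene MYHAS spans MYH4 and had 0, 0, 0 and 2 counts. Whether the MYH4 counts come from that gene's own mRNA was not tested.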
